A study of Mus musculus with 2 samples.

Results

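The genes described here are 44 genes of the Nodal, BMP and TGF-beta pathways. They are set beside the 29311 genes listed in the RNA-seq tables of ES cells and E10.5 forebrain. The 44 were chosen by symbol and not by a cut on their values, but with earlier results of these data known. They comprise 15 ligands, 1 coreceptor, 8 antagonists, 9 receptors, 7 Smads and 4 *Id* genes. Of the 44 genes, 43 are listed with a single identifier each. *Cer1* is not listed in either table, and was taken as 0 in both, as the tables hold no gene that is 0 in both. The series holds 2 samples, 1 per group, and therefore no replicates. The ES cell sample is total RNA from E14 cells, a wild-type embryonic stem cell line cultured in vitro, and the forebrain sample is total RNA from wild-type B6CBAF1/J embryos dissected at E10.5. According to the methods of the study, forebrain RNA was isolated from single embryos. Cell type, strain, culture and extraction reagent (Trizol or Trizol LS) all differ between the samples, and their contributions cannot be told apart.

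The TGF-beta superfamily signals through dimeric secreted ligands that bring type I and type II receptor kinases together at the cell surface. Nodal, activins, GDFs of that branch and TGF-betas signal through SMAD2 and SMAD3, whereas BMPs signal through SMAD1 and SMAD5, and both branches share SMAD4. Nodal needs the coreceptor CRIPTO (*Tdgf1*) and switches on its own inhibitors, the Lefty proteins. In ES cells cultured with serum, BMP signalling is known to maintain *Id* genes, and the Nodal branch is active in an autocrine manner. In the embryonic head, BMPs from the dorsal midline and the surface ectoderm pattern the forebrain.

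The value per gene is the deposited RPKM, reads per kb of exon with a scaling per sample, so that levels of different genes can be compared within a sample. Multiplied by exonic length, the values of short genes mostly fell on steps. These were taken as the worth of 1 read, 1.221 in ES cells and 0.8191 in the forebrain. On this basis the libraries hold 42785843 and 59787939 reads on genes. The deposited values are 52.2 times (ES cells) and 49 times (E10.5 forebrain) larger than RPKM computed from these reads, so they should be read within this series only. Intervals given below are exact 95% intervals on the inferred reads and cover counting error only. A gene was counted as called when RPKM + 1 differed at least 2-fold, that is, by at least 1 on log2(RPKM + 1), where differences of low genes come out too small. Fold differences are ratios of RPKM without the added 1. Because there is no replicate, no difference was tested between cell types.

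Marker genes were compared with the sample labels. All 6 markers of pluripotent cells were higher in ES cells, with a median RPKM of 6075 compared with 40.3 in E10.5 forebrain, and all 6 markers of forebrain neuroepithelium were higher in E10.5 forebrain (median 268 compared with 0.895). The forebrain library also carried all 11 markers of head mesenchyme and neural crest, at 374 to 10812 RPKM (sum 19604, compared with 89.0 in ES cells). Their median of 767 lay above that of the forebrain markers in the same library. All 5 red blood cell markers were present as well, at 817 to 367633 RPKM and with 0.91% of all reads on genes. The 5 endothelial markers were at 308 to 601 RPKM. The 5 surface ectoderm markers were at 43.8 to 206 (sum 635, compared with 4213 in ES cells). Of these, 3 were higher in E10.5 forebrain, among them *Tfap2a* (listed as *Tcfap2a*) at 43.8 compared with 19.95. The other 2, *Cdh1* and *Epcam*, were higher in ES cells. The ES cell library carried the primitive streak gene *T* at 1112 RPKM, whereas *Mixl1*, *Gsc* and *Mesp1* were at 9.05, 8.69 and 0.96. The part of these other cell types in the forebrain values below was not tested. In bulk RNA, fewer cells of a type and less RNA per cell cannot be told apart.

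**Figure D1:**
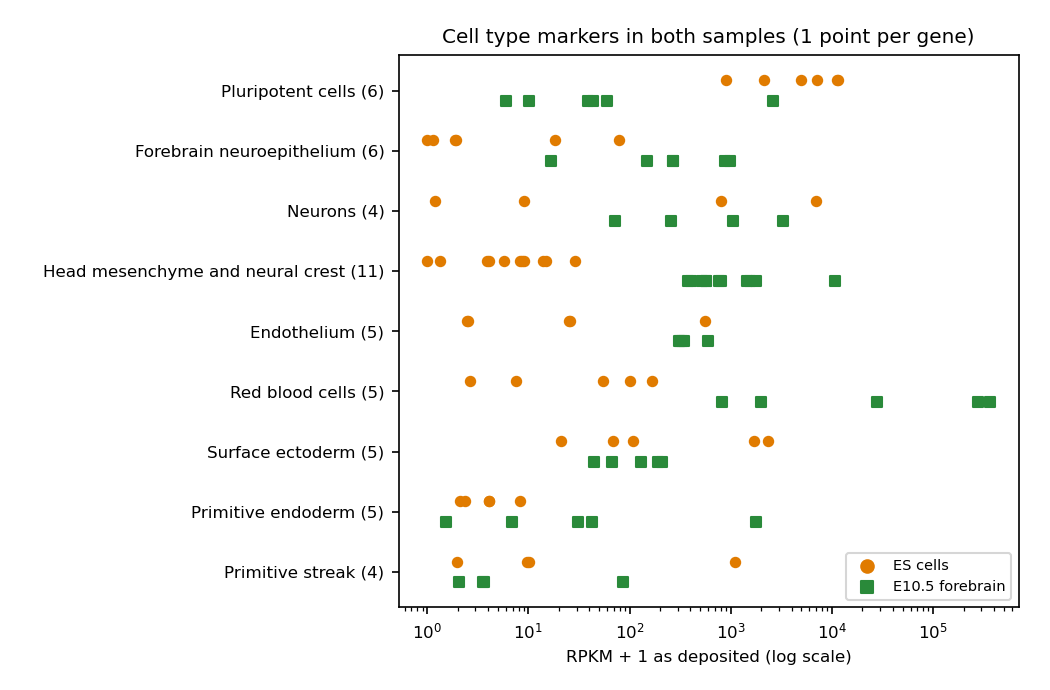
RPKM + 1 (log scale) of marker genes, 1 point per gene, for 9 cell type lists (number of genes in brackets) in ES cells (orange circles) and E10.5 forebrain (green squares). The 11 head mesenchyme and neural crest markers reach at least 374 RPKM in E10.5 forebrain, while in ES cells the highest is 28.1.

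Nearly all pathway genes, like most listed genes, were detected in both samples, yet most of the 44 differed in level. In ES cells 42 of 44 and in E10.5 forebrain 43 of 44 had a value above 0, each from at least 3 reads. Of all 29311 listed genes, 26646 and 27009 had a value above 0, and genes at 0 in both samples are not listed. At the 2-fold threshold, 10 genes were higher in ES cells, or 22.7%, and 24 were higher in E10.5 forebrain, or 54.5%. Over all listed genes, the corresponding shares were 23.3% and 25.8%, and over listed protein-coding genes 18.9% and 27.9%. On the deposited values at 2-fold, the share higher in ES cells was thus near that of all genes. The share higher in E10.5 forebrain was above it. With RPKM recomputed from the inferred reads, which lowers all values, 18.2% and 47.7% of the 44 genes were called, compared with 8.2% and 11.5% of all listed genes. At 4-fold on the deposited values, the same 10 genes (22.7%) were higher in ES cells, compared with 11.3% of all listed genes. In E10.5 forebrain, 13 of the 44 passed 4-fold, compared with 14.4% of all listed genes. The median log2 ratio (ES cells over forebrain) was -1.12 for the 44 genes, -0.013 for all listed genes and -0.17 for protein-coding genes.

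The direction differed between roles. The 5 genes with the largest ratios towards ES cells were *Nodal*, *Gdf3*, *Tdgf1*, *Lefty1* and *Lefty2*, named the Nodal loop here, with a median log2 ratio of 8.52. The group is not one of the roles and holds the top of the list, so its calls and median follow from the choice. Of other genes in the Nodal branch, *Acvr1b* (0.358) and *Smad2* (-0.449) were not called, and *Acvr2b* (-1.384) was called in E10.5 forebrain. Conversely, 8 of 9 receptors, 4 of 7 Smads and 3 of 4 *Id* genes were called higher in E10.5 forebrain. Ligands were divided, with 6 higher in ES cells and 8 in the forebrain, and among 8 antagonists 2 and 1 were called, respectively.

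**Figure D2:**
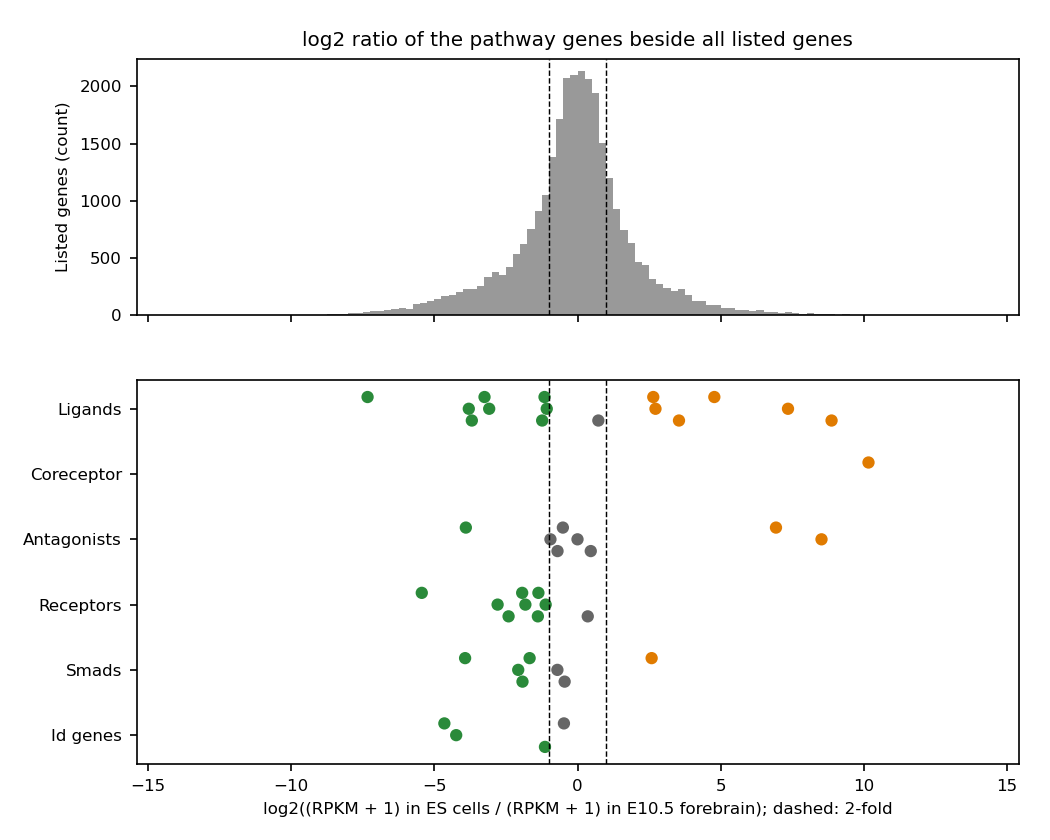
Upper panel, number of listed genes by log2 ratio of RPKM + 1 (ES cells over forebrain). Lower panel, each of the 44 genes by role, in orange or green when at least 2-fold higher in ES cells or E10.5 forebrain and in grey otherwise, with dashed lines at 2-fold; no receptor or *Id* gene lies beyond 2-fold on the ES cell side.

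*Nodal* (chromosome 10, 60880720 to 60888086, NCBIM37) encodes the ligand that patterns the early embryo. It had an RPKM of 704 in ES cells from 1208 reads (665 to 745) and of 3.32 in the forebrain from 8 reads (1.35 to 6.16), a 212-fold difference (114 to 523). *Gdf3*, which encodes a ligand related to Nodal and used by pluripotent cells, had 2094 in ES cells and 3.47 in the forebrain, from 3644 and 9 reads. Its ratio was 603 (318 to 1321), and at percentile 93.1 of listed genes it was the highest ligand in ES cells. Both ligands were thus among the more abundant transcripts in ES cells and at percentiles 23.2 and 23.6 in the forebrain.

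Activin subunits were low in both samples. *Inhba*, the subunit of activin A, had 37.6 in ES cells from 61 reads and 5.17 in the forebrain from 12 reads, a 7.27-fold difference (4.04 to 15.5). *Inhbb*, the subunit of activin B, had 53.4 and 3.66, from 186 and 19 reads (14.6-fold, 9.08 to 24.8). Both were called in ES cells, at 1.28% and 1.82% of the summed RPKM of the 5 ligands of the Nodal, activin and GDF branch. With RPKM recomputed from the inferred reads, their log2 ratios were 0.64 and 0.91 and neither was called. The recomputed values are 52.2 times (ES cells) and 49 times (E10.5 forebrain) smaller, so the added 1 shrinks the log2 ratios of low genes. Their folds of RPKM change little, so the lost calls do not measure how stable these folds are.

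*Gdf11* (chromosome 10, 128319351 to 128328774) was the exception in this branch. This growth factor, which restrains neurogenesis in several neural tissues and acts in axial patterning, had 39.8 in ES cells from 132 reads and 566 in the forebrain from 2806 reads, or 14.2-fold more (12 to 17.1). It made up 97.3% of the summed RPKM of the branch in E10.5 forebrain, compared with 1.36% in ES cells, where *Gdf3* held 71.5% and *Nodal* 24%. Within ES cells *Nodal* was 17.7 times as high as *Gdf11*, and within E10.5 forebrain 0.00587 times. These within-sample values do not depend on how the samples were scaled.

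The 3 TGF-beta ligands were all called higher in E10.5 forebrain. *Tgfb1* had 30.1 in ES cells and 68 in the forebrain (2.26-fold, 1.7 to 3.04). This call was lost with RPKM recomputed from the inferred reads (log2 ratio -0.6), where the added 1 weighs more. The difference was larger for *Tgfb2*, with 15.8 and 158 (10-fold, 7.71 to 13.1), and for *Tgfb3*, with 8.12 and 117 (14.4-fold, 9.26 to 22.4). Accordingly, *Tgfb1* was the main TGF-beta transcript in ES cells, with 55.7% of their sum, while *Tgfb2* led in E10.5 forebrain with 46.1%. Summed over the 3 ligands, RPKM was 53.9 in ES cells and 343 in the forebrain.

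**Figure D3:**
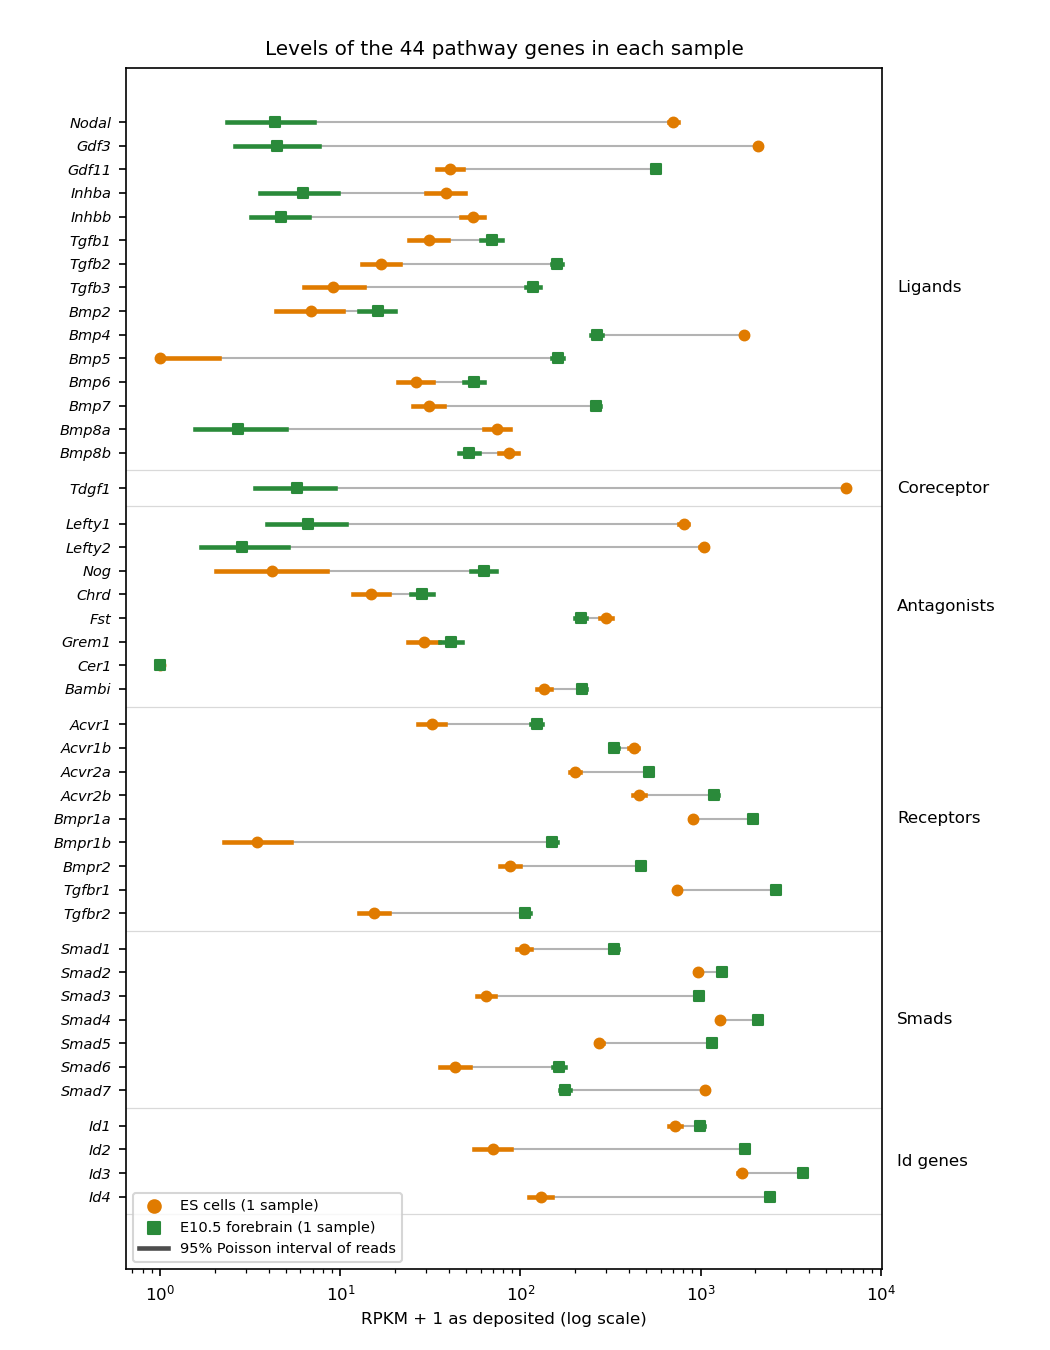
RPKM + 1 (log scale) of the 44 genes, by role, in ES cells (orange circles) and E10.5 forebrain (green squares), with thick lines for the 95% Poisson interval of the inferred reads and grey lines joining both samples. *Cer1*, not listed in the tables, is drawn at 0 RPKM for both, and the widest gap on this scale is that of *Tdgf1*, from 6432 in ES cells to 4.72.

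BMP ligands were dominated by a single gene in ES cells and by several in E10.5 forebrain. *Bmp4* (chromosome 14, 47003195 to 47010344), which acts from the epiblast to the dorsal neural tube, had 1749 in ES cells from 3186 reads and 264 in the forebrain from 717 reads, a 6.62-fold difference (6.11 to 7.19). It contributed 88.9% of the summed RPKM of 7 BMP ligands in ES cells and 32.7% in the forebrain. Even at this lower level, *Bmp4* was still the highest BMP ligand of the forebrain library, together with *Bmp7*. *Bmp7*, a ligand of midline, eye and neural crest tissues, had 30.1 in ES cells and 263 in the forebrain (8.73-fold, 7.11 to 10.8). The ratio of *Bmp4* to *Bmp7* was 58.2 in ES cells (47.6 to 71.8) and 1.01 in the forebrain (0.917 to 1.1).

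*Bmp5* (chromosome 9, 75623171 to 75748117) was the sole listed gene without a read in ES cells. In E10.5 forebrain, this close relative of *Bmp7* had an RPKM of 160 from 787 reads, at least 176-fold higher than the floor of 3 reads in ES cells. Of its exonic bases, 46.7% are shared with *Gm16662*, a lincRNA on the other strand with 0.27 in ES cells and 52.2 in the forebrain. The library kit marks the strand, but whether the counting used it is not given in the sources used here. *Bmp2* and *Bmp6* were low in both samples. *Bmp2*, which acts in heart and bone formation, had 5.84 and 15.1 from 17 and 65 reads, and *Bmp6* had 25.2 and 54.1 from 74 and 237 reads. Their ratios were 2.58 (1.49 to 4.67) and 2.15 (1.65 to 2.83) in favour of E10.5 forebrain. Neither was called with RPKM recomputed from the inferred reads (log2 ratios -0.23 and -0.51), where the added 1 weighs more. Both calls were also lost when 5 was added in place of 1 (-0.89 and -0.97). That of *Bmp6* was lost as well with division by the upper quartile (-0.988) and with ratios centred on protein-coding genes (-0.951). For *Bmp6*, 6.58% of the exonic bases overlap *Txndc5* on the other strand, at 1088 and 2104.

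*Bmp8a* and *Bmp8b*, genes on chromosome 4 best known in germ cell development, were both higher in ES cells. *Bmp8a* had 73.1 from 144 reads and 1.7 from 5 reads (43-fold, 18 to 134), while *Bmp8b* had 85.1 and 51 (1.67-fold, 1.4 to 1.99) and was not called. The coding sequences of this pair are 88% identical over 1200 bases, and 8.91% of the 50-base windows of *Bmp8a* exons also occur in *Bmp8b*. In ES cells the levels of the pair were similar, with a ratio of *Bmp8b* to *Bmp8a* of 1.16 (0.946 to 1.43), but in E10.5 forebrain this ratio was 30 (12.6 to 92.8). Exons of *Bmp8b* also share 133 bases with *Ppie* on the other strand, which had 2374 and 2774.

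**Figure D4:**
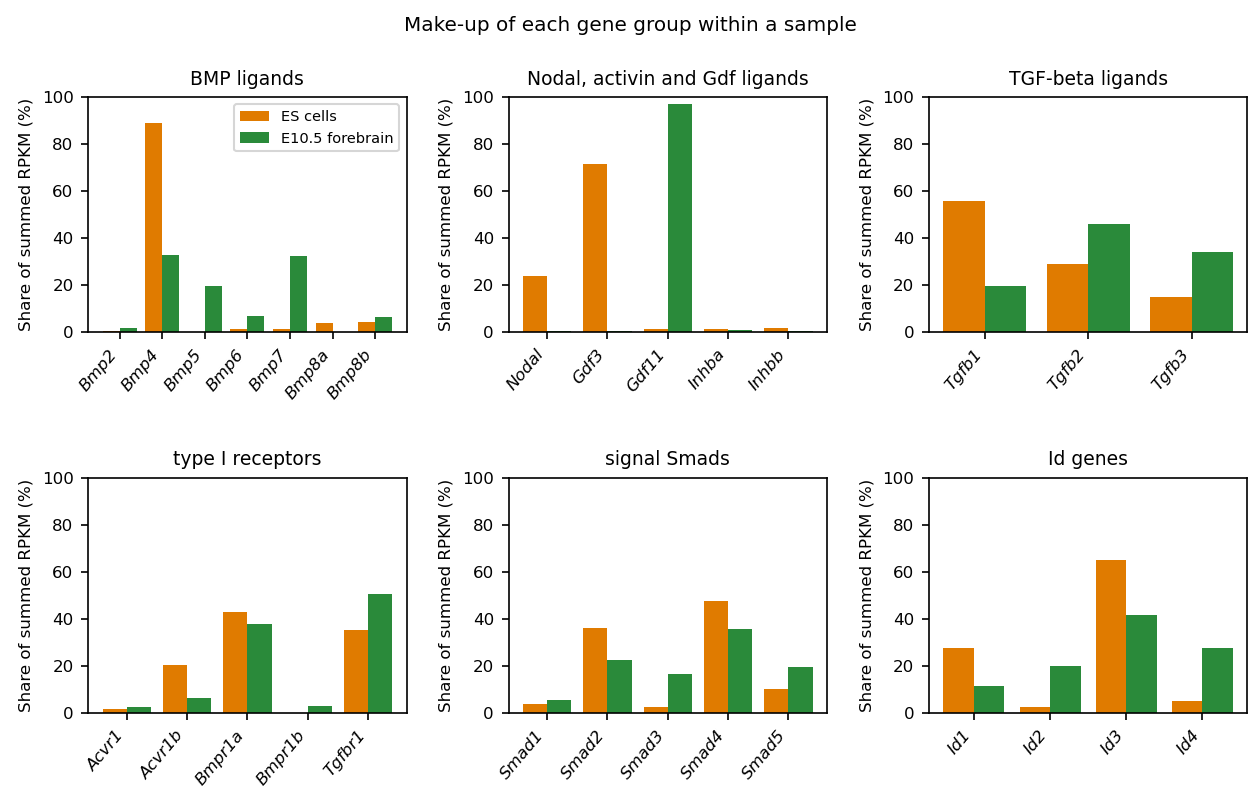
Share of each gene in the summed RPKM of its group (%) within ES cells (orange) and within E10.5 forebrain (green), for 3 groups of ligands, type I receptors, Smads that carry the signal and *Id* genes. Shares do not depend on the scaling between samples, and *Bmp4*, *Gdf3* and *Id3* hold most of their groups in ES cells, with 88.9%, 71.5% and 64.9%.

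*Tdgf1* (chromosome 9, 110842114 to 110848662) had the largest measured ratio among the genes with reads in both samples. This GPI-anchored coreceptor of Nodal had 6432 in ES cells from 10142 reads and 4.72 in the forebrain from 11 reads, which is 1363-fold (768 to 2754). At percentile 97.9 it was also the highest of all 44 genes in ES cells. There it exceeded *Nodal* 9.13-fold (8.61 to 9.71), while in E10.5 forebrain both were near the limit of detection, with 11 and 8 reads.

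Among the antagonists, the Lefty genes stood apart. They encode secreted inhibitors that bind Nodal and its coreceptor, and they are neighbours on chromosome 1 (*Lefty2*, 182823239 to 182829234, and *Lefty1*, 182865153 to 182868531). *Lefty1* had 803 in ES cells from 1157 reads and 5.59 in the forebrain from 12 reads (144-fold, 82 to 279). *Lefty2* had 1038 and 1.83, from 2221 and 6 reads (567-fold, 253 to 1505). Both were called in ES cells, where they held 34.7% and 44.8% of the summed RPKM of the antagonists.

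Reads from identical stretches cannot be assigned to either gene, so the split between them is uncertain. Their coding sequences have the same length, 1107 bases, with 91.9% identity and a longest identical run of 140 bases. Of the 50-base windows of *Lefty1* exons, 18% also occur in *Lefty2*. Among the 44 genes, only the Lefty and *Bmp8* pairs had over 5% of their windows in another gene elsewhere, and 32 genes had none.

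The antagonists of BMPs and activins differed less. *Nog*, whose product noggin sequesters BMPs, was the only other antagonist called, with 3.18 in ES cells from 5 reads and 61.4 in the forebrain from 144 reads (19.3-fold, 8.09 to 60.4). *Chrd* (chordin) had 13.8 and 27.5 (1.99-fold, 1.5 to 2.68), just short of the threshold on the scale used. With values divided by the sum of each sample, *Chrd* was called in E10.5 forebrain as well (log2 ratio -1.204). *Grem1* (gremlin) had 28 and 40.3 (1.44-fold, 1.12 to 1.86). *Fst* encodes follistatin, which neutralises activin, and had 296 and 215 (1.38-fold higher in ES cells, 1.24 to 1.54). *Bambi*, a pseudoreceptor that dampens signalling, had 134 and 218 (1.63-fold higher in E10.5 forebrain, 1.47 to 1.8). *Fst* and *Bambi* together held 18.6% of the summed RPKM of the antagonists in ES cells and 76% in the forebrain. *Cer1*, an antagonist of Nodal and BMP, had no listed value.

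Receptor genes were mostly higher in E10.5 forebrain. The exception was *Acvr1b*, the type I receptor of activin and Nodal (ALK4), with 424 in ES cells and 331 in the forebrain, a 1.28-fold difference that was not called. The other type I receptors were called in E10.5 forebrain. *Tgfbr1* (ALK5, the receptor of TGF-beta) had 741 and 2619 (3.54-fold, 3.42 to 3.66), and *Bmpr1a* (ALK3, the main BMP receptor of the early embryo) had 903 and 1952 (2.16-fold, 2.09 to 2.23). The call of *Bmpr1a* was lost with ratios centred on protein-coding genes (log2 ratio -0.99). These 2 genes held 78.2% of the summed RPKM of the type I receptors in ES cells and 88.4% in the forebrain. *Acvr1* (ALK2), another receptor of BMPs, had 31.2 and 122 (3.91-fold, 3.24 to 4.79).

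*Bmpr1b* (chromosome 3, 141500100 to 141832389), which encodes ALK6, had the largest ratio of RPKM among the receptors. It had 2.46 in ES cells from 12 reads and 149 in the forebrain from 1085 reads, 60.6-fold apart (34.6 to 118). *Bmpr1a* exceeded it 367-fold in ES cells (210.2 to 712) and 13.1-fold in E10.5 forebrain (12.3 to 13.9). Thus, *Bmpr1a* remained the more abundant of the pair in both samples.

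All 4 type II receptors were called in E10.5 forebrain. *Acvr2a* had 201 and 519 (2.58-fold, 2.4 to 2.78) and *Acvr2b* had 457 and 1194 (2.61-fold, 2.4 to 2.85), and the ratio of *Acvr2b* to *Acvr2a* was 2.28 (2.06 to 2.52) in ES cells and 2.3 (2.19 to 2.42) in the forebrain. Of the exonic bases of *Acvr2a*, 7.84% overlap *Orc4* on the other strand, at 597 and 636. *Bmpr2*, the type II receptor specific for BMPs, had 86.5 and 463 (5.35-fold, 4.68 to 6.12). *Tgfbr2*, required for TGF-beta binding, was the lowest in both samples, with 14.4 and 105 (7.33-fold, 5.95 to 9.17). *Tgfbr1* was 51.5 times as high as *Tgfbr2* in ES cells (42.2 to 64) and 24.8 times in the forebrain (23.3 to 26.5).

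The Smads that carry the signal were all higher in E10.5 forebrain, but to very different extents. *Smad2* had 966 and 1318 (1.37-fold, 1.3 to 1.43) and *Smad4*, the common partner, had 1282 and 2086 (1.63-fold, 1.57 to 1.69), and neither was called. By contrast, *Smad3* (chromosome 9, 63494574 to 63605801) had 63.3 in ES cells from 287 reads and 976 in the forebrain from 6603 reads (15.4-fold, 13.7 to 17.4). *Smad2* and *Smad3* act downstream of the same receptors, and their ratio was 15.2 in ES cells (13.5 to 17.3) and 1.35 in the forebrain (1.3 to 1.4). Of this pair, the ES cell library therefore held mainly *Smad2* transcripts. In the forebrain library *Smad2* was still the higher of the pair, by a much smaller ratio.

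Both Smads of the BMP branch were called in E10.5 forebrain. *Smad1* had 103 and 331 (3.21-fold, 2.91 to 3.54) and *Smad5* had 274 and 1152 (4.21-fold, 4 to 4.44). *Smad5* was the more abundant in both samples, 2.65 times *Smad1* in ES cells (2.39 to 2.93) and 3.48 times in the forebrain (3.33 to 3.64).

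The inhibitory Smads went in opposite directions. *Smad7*, a feedback inhibitor of both branches, had 1059 in ES cells and 175 in the forebrain (6.05-fold, 5.63 to 6.49) and was the only Smad called in ES cells. *Smad6*, which preferentially inhibits BMP signalling, had 42.2 and 163 (3.85-fold higher in E10.5 forebrain, 3.12 to 4.74). The ratio of *Smad7* to *Smad6* was 25.1 in ES cells (20.6 to 30.5) and 1.08 in the forebrain (0.973 to 1.19).

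*Id* genes encode helix-loop-helix proteins without a DNA-binding domain that block bHLH factors, and are direct targets of BMP signalling in many cells. *Id1* had 717 in ES cells and 996 in the forebrain (1.39-fold, 1.27 to 1.53) and was not called. *Id3* had 1688 and 3710 (2.2-fold, 2.1 to 2.3) and was the highest *Id* gene in both samples. *Id2* (chromosome 12) and *Id4* (chromosome 13) differed far more. *Id2* had 69.2 from 72 reads and 1760 from 2729 reads (25.4-fold, 20.1 to 32.6), and *Id4* had 128 from 175 reads and 2436 from 4937 reads (19-fold, 16.3 to 22.1). For *Id4*, 10.3% of the exonic bases overlap *A330033J07Rik*, a lincRNA on the other strand with 10.4 and 111. In ES cells, *Id1* and *Id3* together held 92.4% of the summed RPKM of the *Id* genes, compared with 52.9% in E10.5 forebrain. *Id1* was 10.4 times as high as *Id2* in ES cells (8.11 to 13.4) but 0.566 times in E10.5 forebrain (0.53 to 0.604).

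The 250 bases upstream of the start are shown for *Id2*, *Id3* and *Id4*, the *Id* genes found in the RefSeq promoter table (GRCm38.p6, 5′ to 3′ on the strand of the gene). Letters in capitals mark GGCGCC, the GC-rich part of the BMP response element described for *Id* genes, and GTCTG or its reverse complement CAGAC, the Smad box, both searched on either strand. *Id2* is at chr12:25096093-25096342 (minus strand), *Id3* at chr4:136143572-136143821 and *Id4* at chr13:48260866-48261115 (plus strand).
Id2: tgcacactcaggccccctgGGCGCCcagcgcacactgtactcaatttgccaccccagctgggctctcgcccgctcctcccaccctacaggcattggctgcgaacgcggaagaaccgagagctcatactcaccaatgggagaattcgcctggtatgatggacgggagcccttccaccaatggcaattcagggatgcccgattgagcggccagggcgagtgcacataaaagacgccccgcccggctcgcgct
Id3: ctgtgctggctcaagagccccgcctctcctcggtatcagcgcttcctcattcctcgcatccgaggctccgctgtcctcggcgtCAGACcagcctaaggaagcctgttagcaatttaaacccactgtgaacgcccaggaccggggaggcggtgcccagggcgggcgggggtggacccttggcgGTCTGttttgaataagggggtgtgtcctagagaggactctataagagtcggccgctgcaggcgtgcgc
Id4: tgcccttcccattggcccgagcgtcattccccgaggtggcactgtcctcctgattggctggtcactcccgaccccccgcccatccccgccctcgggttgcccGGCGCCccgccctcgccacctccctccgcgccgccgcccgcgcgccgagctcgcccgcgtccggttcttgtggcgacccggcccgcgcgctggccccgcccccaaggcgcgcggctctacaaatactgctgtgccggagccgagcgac
*Id1* is not in the RefSeq promoter table. *Id2* and *Id4* each held GGCGCC once, 231 and 148 bases upstream of the start, and no GTCTG. *Id3* held no GGCGCC and GTCTG or CAGAC at 2 positions, 167 and 68 bases upstream. Over the 31 of 44 genes found in the RefSeq promoter table, 8 held GGCGCC (25.8%, compared with 9.59% of all 32851 promoters) and 15 held GTCTG or CAGAC (48.4%, compared with 42.2%). The shares are in unlike units. A gene of the 31 was counted when any of its promoters matched, whereas all promoters were counted singly. Median GC content of the 250 bases was 64.9% for these genes and 52.4% for all promoters. GGCGCC followed after 5 bases by GTCT was found in 0 of the 31 genes and in 0.07% of all promoters. These matches describe the letters only.

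A further 62 genes of the pathway, among them other ligands, modulators, proteases, cofactors and targets, showed a similar balance. Of these, 12 were called higher in ES cells and 36 in the forebrain, with a median log2 ratio of -1.24, and 14 were not called. These are 19.4% and 58.1% of the list, beside 23.3% and 25.8% of all listed genes. Genes are named from a 4-fold difference of RPKM + 1, which 9 passed in ES cells, or 14.5%, compared with 11.3% of all listed and 8.93% of protein-coding genes. Folds of RPKM itself can be larger or, where a gene has no read, known only as a bound. The 9 included *Foxh1*, the DNA-binding partner of SMAD2 in Nodal signalling, with 1002 and 9.72 (103-fold, 64.3 to 191). *Cfc1*, the paralog of *Tdgf1*, had 7.65 from 7 reads in ES cells and 0 in the forebrain (at least 3.23-fold higher), and *Pcsk6*, a protease that processes Nodal precursors, had 350 and 69.3. *Furin*, another protease that processes Nodal precursors, was in the other direction, with 23.2 in ES cells and 77 in the forebrain (3.32-fold, 2.82 to 3.94). *Ltbp2*, *Ltbp4*, *Gdf15*, *Amhr2* and *Inhbc* were also among the 9.

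In E10.5 forebrain, 20 of these genes passed 4-fold on RPKM + 1, or 32.3%, compared with 14.4% of all listed and 15.6% of protein-coding genes. Among targets of BMP signalling, *Msx1* was at 9.46 in ES cells and 1492 in the forebrain (158-fold, 95.4 to 282) and *Msx2* was at 23.9 and 243 (10.2-fold, 7.6 to 13.9). Further BMP antagonists and modulators were in this direction as well. *Sostdc1* had no read in ES cells and 89.6 in the forebrain (at least 42.8-fold higher), and *Chrdl1* had none and 43.2 (at least 79.6-fold higher). *Nbl1* had 9.91 and 393 (39.7-fold, 23.9 to 66.4), and *Bmper* had 1.77 and 69.3 (39.2-fold, 18.3 to 134). *Zeb2*, which encodes a Smad-interacting repressor of neural and neural crest cells, had 2.62 and 285 (109-fold, 77.3 to 158). This direction also held *Gdf6*, *Gdf9*, *Gdf10*, *Mstn*, *Bmp1*, *Bmp3*, *Sost*, *Ltbp1*, *Acvrl1*, *Rgma*, *Rgmb* and *Zfp423*. *Msx1*, *Msx2* and *Zeb2* are also expressed in head mesenchyme or neural crest, whose 11 markers were higher in the same library.

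**Figure D5:**
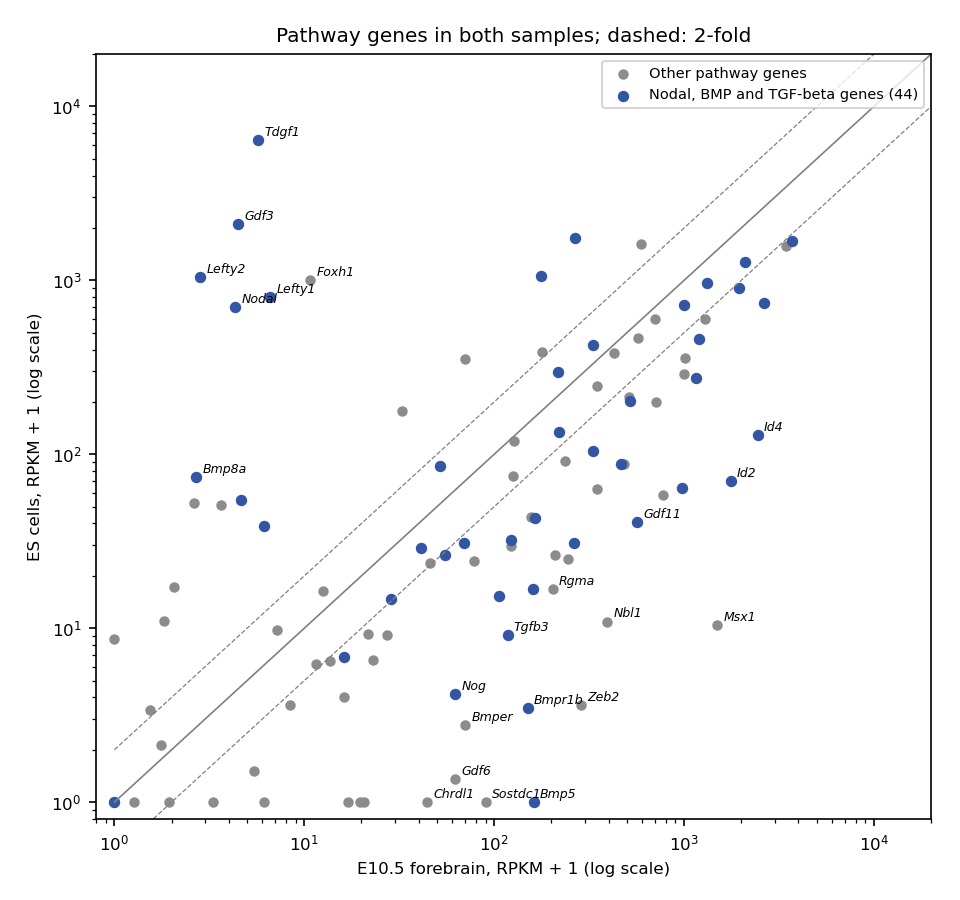
RPKM + 1 of the 44 genes (blue) and of other pathway genes reported here (grey) in E10.5 forebrain (horizontal) and ES cells (vertical), on log scales, with a solid line of equality and dashed lines at 2-fold. *Foxh1* (1002 and 9.72) lies beside the Nodal loop genes at the upper left, and *Msx1* (9.46 and 1492) lies far below the lower dashed line.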

How the data were processed

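Strand-specific libraries of rRNA-depleted total RNA were sequenced as single-end reads (100 bp per the labels, 50 bp per the methods). The authors used HTSstation for mapping to the mm9 genome (NCBIM37) and deposited RPKM values per gene. The submitters' processing notes name Bowtie 0.12.7. All 29311 genes matched the annotation of that build. Reads were inferred from the step of low values on genes of at most 2500 exonic bp: 62.4% (ES cells) and 64.7% (E10.5 forebrain) of low genes lay within 0.05 of a whole multiple, where an even spread gives 10%. Reads were rounded. Poisson and Clopper-Pearson intervals are exact at 95% for these rounded reads, and the floor was 3 reads. Steps were tested on simulated data. Without replicates no test was made. The 44 genes, the other pathway genes and the markers were chosen with earlier results of these data known. All 44 genes are named, and other pathway genes from a 4-fold difference of RPKM + 1, of which some are not reported here. Alternatives covered pseudocount, scaling, filters and threshold. Software was Biopython 1.88, pandas 2.3.3, scipy 1.17.1, numpy 2.4.6, matplotlib 3.10.9 and Python 3.11.15.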

Additional observations from a re-analysis of the deposited data

How the results depend on the processing

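The numbers of genes called at 2-fold changed little under the alternatives. Log2 ratios of many single genes shrank with RPKM recomputed from the inferred reads, for example *Nodal* from 7.351 to 3.766 and *Bmp5* from -7.331 to -2.094. The filters leave out genes but cannot change the ratio of a gene. At 2-fold, the number of genes called higher in ES cells ranged from 8 to 10 over all pseudocounts, scalings and filters. That in E10.5 forebrain ranged from 21 to 25. The shares of all listed genes over the same settings moved as well, from 8.2% to 26.5% (ES cells) and from 11.5% to 30% (E10.5 forebrain). Both were lowest with recomputed RPKM. With a 1.5-fold threshold, the counts were 11 (ES cells) and 27 (E10.5 forebrain), and the share of all genes was not computed. With a 4-fold threshold, the counts were 10 (ES cells) and 13 (E10.5 forebrain). The median log2 ratio ranged from -1.396 with division by column sums, which moved the median of all genes to -0.261, to -0.692 with RPKM recomputed from the inferred reads, whose smaller values give the added 1 more weight. Of the 34 genes called, 28 were called under all 5 other scalings (8 in ES cells, 20 in E10.5 forebrain), and 0 genes changed direction. Ranks of size did change, as *Bmp5* (log2 ratio -10.65) passed *Tdgf1* (10.38) with a pseudocount of 0.1, and *Bmpr2* (-1.98) passed *Bmpr1b* (-1.95) with recomputed RPKM. *Inhba*, *Inhbb*, *Tgfb1*, *Bmp2*, *Bmp6* and *Bmpr1a* were not called under at least 1 scaling. For *Inhba*, *Inhbb*, *Tgfb1* and *Bmp2*, this was only with recomputed RPKM, where the added 1 weighs more. Centring on protein-coding genes was chosen after seeing the data, and gave 10 and 22 calls. No paired analysis was possible because each group has 1 sample. For *Nodal*, *Gdf3*, *Tdgf1* and the Lefty genes, 6 to 12 reads in E10.5 forebrain limit how precisely the ratios are known.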

Other observations

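Some markers in the ES cell library did not follow their list. *Stmn2*, a neuronal stathmin, had an RPKM of 6910 in ES cells and 1056 in the forebrain, while *Dcx*, another neuronal gene, had 0.19 and 253. *Pecam1* had 551 in ES cells and 317 in the forebrain, whereas *Cdh5* had 1.53 and 326. *Cdh1* and *Epcam*, listed as markers of surface ectoderm, were higher in ES cells, with 2332 and 66.2 for *Cdh1* and 1685 and 206 for *Epcam*.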
